A study of Mus musculus with 12 samples.

Results

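The 8 genes described here encode proteins of the synaptic vesicle and of the machinery that fuses it with the plasma membrane: Snap25, Vamp2, Syt1, Syt4, Syt11, Syp, Sv2a and Rab3a. They were chosen by name, and their reads were those of class mRNA that passed the tail caller's quality tag, which gave 780 of 4274320 reads for 8 of the 14042 genes with any such read. The cells were P19, an established line from a mouse teratocarcinoma whose cells become neuron-like under retinoic acid. The undifferentiated cells (D0) were kept in medium with 10% fetal bovine serum and no retinoic acid. The cells of D2, D4 and D6 had spent 2, 4 or 6 days in NDiff 227, a serum-free neural medium, with 500 nM retinoic acid, so that medium, serum and retinoic acid changed together between D0 and D2. Each day had 3 biological replicates, and the RNA molecules themselves were read on nanopores, so that 1 read is 1 molecule with its poly(A) tail. Cells of 1 line stand for all days, the labels do not give the share of cells that became neurons, and in bulk RNA fewer cells that express a gene and less RNA per cell cannot be told apart.

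A synaptic vesicle stores transmitter and releases it when calcium enters the nerve terminal. The vesicle SNARE protein synaptobrevin zippers with SNAP-25 and a syntaxin on the plasma membrane and pulls the membranes together, synaptotagmins on the vesicle sense calcium, and the small GTPase RAB3A guides vesicles to the release site. Synaptophysin and SV2A are integral vesicle proteins that are used as markers of nerve terminals.

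RefSeq promoters of build GRCm38.p6 (250 bases before to 50 bases after a start) were at hand for 5 of the 8 genes: 7 promoters of Syt11, Sv2a, Rab3a, Syt1 and Syp. The GC box (letters GGGCGG, on either strand), which SP-family factors bind, was in 5 of these promoters and in each of the 5 genes, against 35.7% of 32851 promoters. The E box CAGCTG, letters bound by neurogenic helix-loop-helix factors and the same on both strands, was in 3 promoters of Rab3a, Sv2a and Syt1, against 16.3% of all. The TATA box TATAAA (13.6% of all) and the left part CAGCACC (7.14% of all) of the RE1 element, which binds the neuronal gene repressor REST, matched in none of the 7. The right part of RE1, GGACAG, was in 2 promoters, of Syt11 and Syt1, against 22.2% of all. The letters TGACGTC of a cAMP response element were in 1 promoter, of Rab3a, against 3.21% of all. No matches of different motifs overlapped, and a match is a description of the sequence and not a site. Of the windows that overlap no annotated exon, those with a GC box or an E box are shown because these letters were found in the promoters of the most genes of the motifs searched, each with the strand of its gene and with the motif in capitals (CCGCCC is the GC box read on the other strand).
Sv2a GC box, chr3:96181061-96181090: ccccccccccccCCGCCCcatcatcttttc
Rab3a GC box, chr8:70754453-70754482: tctCCGCCCttcaaacacctagcagtcacc
Sv2a E box, chr3:96180986-96181015: gactgtcatttcCAGCTGtcaccctgacag
Rab3a E box, chr8:70754905-70754934: gcgtttcactgaCAGCTGggggatcaaggg
Syt1 E box, chr10:109009125-109009154: agcgattaccatCAGCTGgggggggggggg
The Sv2a windows and the Rab3a GC box lie upstream of the gene, and the E boxes of Rab3a and Syt1 lie in an intron, ahead of a downstream RefSeq start.

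Libraries held between 120326 (D2 replicate 1) and 613756 (D0 replicate 2) reads, and the 3 D2 libraries were the smallest. Levels are given as CPM, reads per 1000000 of a library's size scaled by trimmed means, and differences were tested with limma-voom over 9309 genes with at least 30 reads, with Benjamini-Hochberg adjustment. Of the neuron markers 11 of 11 tested were higher at D6 than at D0, and their summed level went from 619 to 653 CPM at D0 to 3520 to 3760 CPM at D6, while Rbfox3, a marker of mature neurons, had 3 reads at D6. All 4 tested markers of pluripotent cells were lower (3 with library totals, without Sox2, and the 8 summed to 1970 to 2270 CPM at D0 and 181 to 229 CPM at D6), with Pou5f1 at 1710 ± 174 CPM (SD, n = 3) at D0 and 0.902 ± 1.56 CPM at D6. Of these 4, Pou5f1, Utf1 and Tdgf1 reached 30 reads only with their D0 reads, so a call of lower was favoured by the minimum itself. Esrrb, with too few reads for the test, had 1 read at D0 and 9 at D6. For glia, Aqp4, S100b and Sox10 had no read on any day and Gfap had 1, while Slc1a3 went from 90 reads at D0 to 22 at D6 and Mbp had 34 on each of these days. The 8 glia markers summed to 71.4 to 107 CPM at D0 and 46.0 to 63.1 CPM at D6. The endoderm markers summed to at most 7.84 CPM in any library, and 3 of the 5 had no read. Muscle and mesenchyme markers summed to 37.9 to 42.6 CPM at D0 and to at most 7.42 CPM at D6, with Myog and Myh6 at 0. The granule markers of neuroendocrine cells, which share part of the release machinery, also moved: 5 of 6 tested were higher at D6 (1 of them, Chga, reached 30 reads only with its D6 reads), and all 8 together went from 115 to 124 CPM at D0 to 444 to 542 CPM at D6. The part of each of these cell types in the levels below was not tested.

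Together the 8 genes held 12, 26 and 34 reads in the 3 libraries of D0 and 7, 10 and 8 in those of D2. They held 47, 52 and 76 reads at D4 and 128, 228 and 152 at D6. Their summed level was 49.3 ± 21.5 CPM (SD, n = 3) at D0, 45.8 ± 7.92 CPM at D2, 163 ± 36.7 CPM at D4 and 455 ± 37.6 CPM at D6. D0 and D2 overlapped, every D4 library lay above both, and every D6 library lay above every D4 library. Each sequencing run held 1 day, so run and day cannot be told apart. The 8 genes had 36.2 to 53.6 reads per 1000000 in the 3 runs of D0, 38.5 to 69.2 in the 3 of D2, 141 to 165 in the 3 of D4 and 458 to 506 in the 4 of D6.

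**Figure D1:**
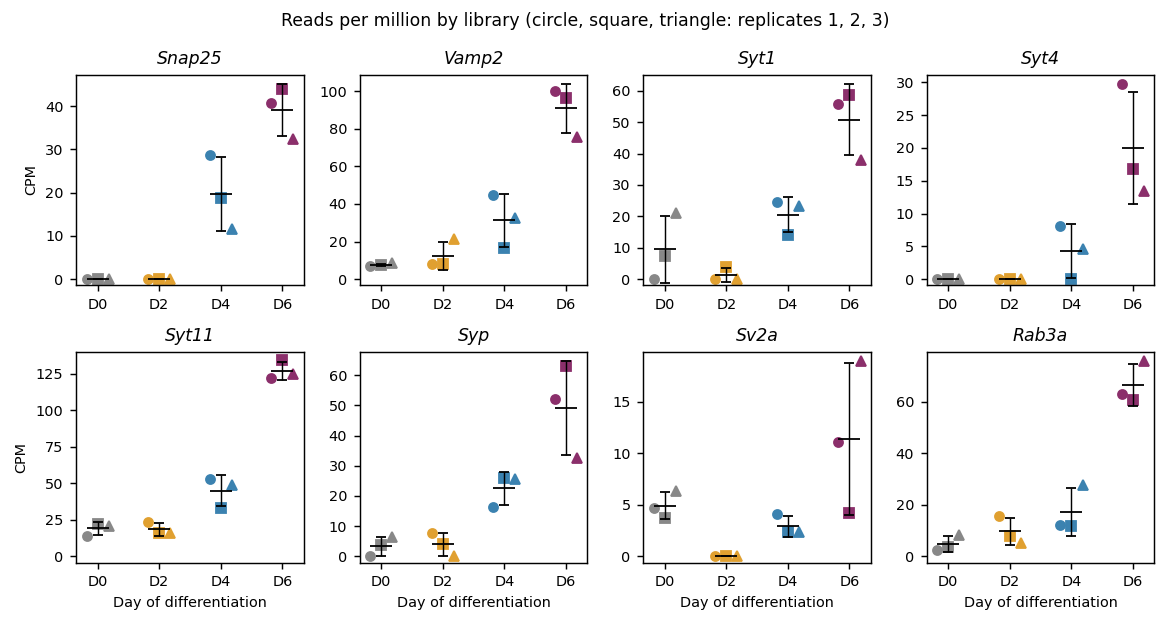
Level of each gene in CPM (vertical axis, linear, its own range for each gene) against the day of differentiation. Points are libraries, bars the mean and SD of 3 libraries. In all genes but Sv2a every D6 library lies above every D0 library, and Snap25 and Syt4 have no read at D0 or D2.

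Snap25 (chr2:136713453-136782428, plus strand, build GRCm38 or mm10 as for all positions below) encodes the SNARE of the plasma membrane that pairs with synaptobrevin, and no read of it was found before D4. It had 0 reads in each of the 6 libraries of D0 and D2, which allows a share of up to 0.00249% of reads in the smallest of them. The 3 D4 libraries held 7, 8 and 5 reads and those of D6 held 11, 21 and 12. Every D6 library was above every D4 library. The mean level was 19.6 ± 8.52 CPM at D4 and 39.1 ± 5.97 CPM at D6 (SD, n = 3). Against a limit of 3 reads over the D0 group, the level was at least 8.69-fold higher at D4 (adjusted p = 2.57e-06, limma-voom) and at least 18.9-fold higher at D6 (adjusted p = 9.14e-10). These bounds take the later day's reads as counted, and the exact counting intervals, which allow for error in both days, start lower, at 6.44 and 14.7. Against the same limit at D2, where depth was lower, it was at least 3.42-fold higher at D4 (adjusted p = 0.0092, interval from 2.53), a call that was lost without D2 replicate 2 or without D2 replicate 3. From D4 to D6 it rose by 1.13 ± 0.37 on the log2 scale (SE, adjusted p = 0.0454, limma-voom). That call was lost under 18 of 24 other settings (adjusted p 0.00878 to 0.431). Of the 64 Snap25 reads, 20 lay outside D6, so the gene reached the minimum for the test only with its D6 reads. A call of higher at D6 was therefore favoured by the minimum itself.

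Vamp2 (chr11:69088490-69092384, plus strand) encodes synaptobrevin-2, the vesicle SNARE of most forebrain synapses. It was read in every library: 3, 4 and 4 reads at D0, 1, 2 and 4 at D2, 11, 7 and 14 at D4, and 27, 46 and 28 at D6. The level was 7.64 ± 0.673 CPM at D0, 12.4 ± 7.68 CPM at D2, 31.3 ± 14.3 CPM at D4 and 90.8 ± 13.1 CPM at D6 (SD, n = 3). D2 overlapped both D0 and D4, while D6 lay wholly above the other days. The log2 fold change from D0 was 1.70 ± 0.48 at D4 (adjusted p = 0.00542, limma-voom) and 3.40 ± 0.44 at D6 (adjusted p = 2.54e-09). The D4 call was lost with every library thinned to the same depth, where the value was -0.20 (adjusted p = 0.922). The thinning was a random draw that was not repeated, so with few reads at D0 the value depends on the reads drawn. The rise from D4 to D6 was 1.69 ± 0.30 (adjusted p = 4.28e-05), and it was called under all 25 other settings in which it was tested.

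Syt1 (chr10:108497650-109010982, minus strand), the fast calcium sensor of transmitter release, had the widest spread in CPM at D0. Its reads were 0, 4 and 10 at D0, 0, 1 and 0 at D2, 6, 6 and 10 at D4, and 15, 28 and 14 at D6. D0 replicate 3, with its 10 reads, stood above D4 replicate 2, at 14.1 CPM. The means were 9.47 ± 10.6, 1.34 ± 2.32, 20.6 ± 5.68 and 50.8 ± 11.2 CPM at D0, D2, D4 and D6 (SD, n = 3). D6 was above D0 by 3.02 ± 0.55 on the log2 scale (adjusted p = 7.84e-06, limma-voom) and above D4 by 1.31 ± 0.39 (adjusted p = 0.0232). The rise from D0 to D6 was called under all 24 other settings, but its size depended on D0: it was 1.94 without D0 replicate 1 and 3.88 without D0 replicate 3. The D6 to D4 call was lost under 7 of 24 other settings, among them limma-trend, libraries thinned to equal depth, and leaving out D4 replicate 1, D4 replicate 2 or D6 replicate 2 (adjusted p 0.0141 to 0.381). D4 was above D0 by 1.71 ± 0.60 (adjusted p = 0.0278), a call lost under 7 of 24 other settings (adjusted p 0.00416 to 0.359). Without D0 replicate 1 it was 0.67 (adjusted p = 0.359), and the call was also lost without D0 replicate 2, D4 replicate 1 or D4 replicate 3, with limma-trend (adjusted p = 0.0745), with the replicate number as a block (adjusted p = 0.0717) and with thinned libraries (adjusted p = 0.241). With 1 read at D2, the pooled ratio of D4 to D2 was 11.3 (95% exact counting interval 1.82 to 465), and the test of that step did not pass (adjusted p = 0.0681), but it passed under 5 of 24 other settings: no minimum on reads, a barcode confidence of at least 0.75, limma-trend, the replicate block, and without D4 replicate 2 (adjusted p 0.00906 to 0.313 over the 24).

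Syt4 (chr18:31437808-31447406, minus strand), a synaptotagmin that does not bind calcium as Syt1 does and that is also found on dense-core vesicles, was read only late. It had no read in the 6 libraries of D0 and D2, then 2, 0 and 2 reads at D4 and 8, 8 and 5 at D6. Its 25 reads fell short of the 30-read minimum, so it has no test among the 9309 genes. The D6 level, 20 ± 8.55 CPM (SD, n = 3), was at least 9.02-fold higher than 3 reads over the D0 group (exact counting interval from 6.71), and the pooled ratio of D6 to D4 was 5.19 (95% exact counting interval 1.75 to 20.8). With the minimum at 10 reads it was called from D0 to D6 (adjusted p = 1.27e-06, limma-voom) and from D4 to D6 (adjusted p = 0.0125). It reached those 10 reads only through D6, with 4 reads outside that day, so a call at D6 was favoured by the minimum itself.

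Syt11 (chr3:88744700-88775164, minus strand), another synaptotagmin that does not trigger fusion on calcium, which acts in membrane traffic and is found in many cell types, had the most reads of the 8. It was read in every library, with 6, 12 and 10 reads at D0, 3, 4 and 3 at D2, 13, 14 and 21 at D4, and 33, 64 and 46 at D6. At D0 and D2 its level was nearly the same, 19.1 ± 4.31 and 18.5 ± 4.35 CPM (SD, n = 3), and the interval of the pooled ratio of D2 to D0 ran from 0.394 to 1.93. It was 44.9 ± 10.6 CPM at D4 and 127 ± 6.27 CPM at D6. The 3 D4 libraries all lay above D0 and D2 and the 3 D6 libraries above D4. The log2 fold change was 1.12 ± 0.34 from D0 to D4 (adjusted p = 0.00903, limma-voom), 2.68 ± 0.30 from D0 to D6 (adjusted p = 3.37e-11) and 1.55 ± 0.24 from D4 to D6 (adjusted p = 3.86e-06). The last 2 were called under all 24 other settings in which they were tested, while the first was lost with thinned libraries, at 0.37 (adjusted p = 0.696).

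Syp (chrX:7638471-7653256, plus strand) encodes synaptophysin, an abundant protein of the vesicle membrane. It had 0, 2 and 3 reads at D0, 1, 1 and 0 at D2, 4, 11 and 11 at D4, and 14, 30 and 12 at D6. The level was 3.33 ± 3.17 CPM at D0, 3.95 ± 3.92 CPM at D2, 22.5 ± 5.39 CPM at D4 and 49.1 ± 15.4 CPM at D6 (SD, n = 3). Each D4 library was above every library of D0 and D2, and D6 was above D4 without overlap. It rose from D0 by 2.80 ± 0.65 on the log2 scale at D4 (adjusted p = 0.000605, limma-voom) and by 3.80 ± 0.61 at D6 (adjusted p = 7.08e-07), and both calls held under all 24 other settings in which they were tested. The step from D4 to D6, 1.01 ± 0.36, did not pass (adjusted p = 0.071), but it passed without D6 replicate 3 and with library totals in place of scaled sizes (adjusted p 0.0231 to 0.432 over 24 other settings).

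Sv2a (chr3:96181151-96195521, plus strand), a transporter-like vesicle protein and the target of the drug levetiracetam, was the one gene whose D6 and D0 libraries overlapped. Its reads were 2, 2 and 3 at D0, 0, 0 and 0 at D2, 1, 1 and 1 at D4, and 3, 2 and 7 at D6. The overlap came from D6 replicate 2, which stood at 4.19 CPM where D0 replicate 3 stood at 6.30 CPM. The mean level was 4.91 ± 1.31 CPM at D0, 2.91 ± 1.01 CPM at D4 and 11.4 ± 7.38 CPM at D6 (SD, n = 3). The pooled ratio of D6 to D0 was 2.21, with an exact counting interval of 0.802 to 6.62. With 22 reads it was not among the genes tested, and with the minimum at 10 reads its change from D0 to D6 was not called (adjusted p = 0.303, limma-voom). The D2 libraries at 0 reads do not show that it was absent, since the pooled ratio of D2 to D0 could be as high as 1.77.

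Rab3a (chr8:70754679-70758677, plus strand), the GTPase that acts in vesicle docking, had 1, 2 and 4 reads at D0, 2, 2 and 1 at D2, 3, 5 and 12 at D4, and 17, 29 and 28 at D6. The level was 4.82 ± 3.17 CPM at D0, 9.67 ± 5.38 CPM at D2, 17.3 ± 9.15 CPM at D4 and 66.6 ± 8.07 CPM at D6 (SD, n = 3). D2 overlapped its neighbours on both sides, and D6 stood clear of all other days. From D0 the log2 fold change was 1.74 ± 0.58 at D4 (adjusted p = 0.0207, limma-voom) and 3.64 ± 0.51 at D6 (adjusted p = 2.96e-08), and from D4 to D6 it was 1.90 ± 0.37 (adjusted p = 0.000229), a call lost with thinned libraries (adjusted p = 0.132). The D4 call was lost with thinned libraries and without D0 replicate 1, D0 replicate 2 or D4 replicate 3 (adjusted p 0.00119 to 0.83 over 24 other settings).

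Read over the comparisons, 6 of the 8 genes had the 30 reads needed for the test, and 5 of them reached that number without their D6 reads (Snap25 did not), so a gene could pass because of the day on which it is high. From D0 to D2, 0 of these 6 were called in either direction (0 also at an unadjusted p under 0.05), where 10.8% of all genes were called. With limma-trend 0 were called, but 2 had an unadjusted p under 0.05, as did 2342 of all 9309 genes. Under the other settings that unadjusted count was at most 2. From D0 to D4, 6 were called higher, against 12.6% of all genes called higher. From D0 to D6, 6 were called higher, against 19.4%. Over all genes 1809 were called higher and 1690 lower from D0 to D6, and 2588 and 1162 with library totals in place of scaled sizes, which moved the median of all genes to 0.26 on the log2 scale. From D0 to D2 the split was 417 and 588 (720 and 373 with library totals), from D0 to D4 1171 and 1185 (1537 and 921), from D2 to D4 187 and 95 (170 and 138), and from D4 to D6 413 and 365 (573 and 257). Snap25 alone was called from D2 to D4, against 2.01%, and 5 (all but Syp) from D4 to D6, against 4.44%. Without a minimum on reads, 7 of the 8 genes were higher in every D6 library than in every D0 library, which held for 18.6% of the 14042 genes with any read and 23.6% of the 9309 tested. The comparisons with D0 share the D0 libraries and the steps share those of D2 or D4. Each D2 library was shallow. With every library thinned to 120326 reads, by a random draw that was not repeated, 4 of the genes could be tested. Of these 4, 0 were called from D0 to D4 (0 at an unadjusted p under 0.05), where 5.03% of all 6108 genes were called higher. From D0 to D6, 4 were called, where 8.94% of all genes were called higher. With the transcript that had most reads in place of each gene, 4 genes were called from D0 to D4 (not Syt1 or Syt11), 6 from D0 to D6 and 2, Vamp2 and Syt11, from D4 to D6. Of all 12356 transcripts, 1278, 1674 and 209 were called higher in these comparisons.

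**Figure D2:**
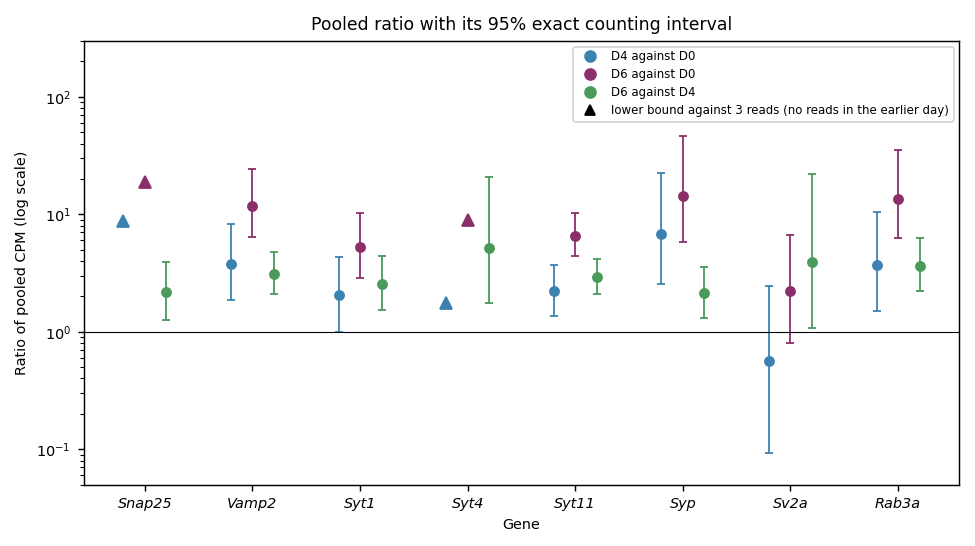
Ratio of the pooled level of a day to that of an earlier day for each gene (vertical axis, log scale), with its 95% exact counting interval, which covers counting error only. Triangles are lower bounds against 3 reads where the earlier day had none. The D6 to D0 ratio runs from 2.21 in Sv2a to 14.4 in Syp among genes with reads at D0, and the Sv2a interval includes 1.

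The other parts of the vesicle cycle were uneven at D6 against D0 (over the 9309 genes tested, 19.4% were called higher and 18.2% lower, and the median was 0.02 on the log2 scale). Among SNARE proteins and their regulators, 4 of 8 tested rose and 0 fell, with a median log2 fold change of 1.27 (6 rose with library totals and 5 with median-of-ratios scaling). Of these 4, 2 reached 30 reads only with their D6 reads, Snap91 among them. Cplx2, a complexin that clamps the SNARE complex, went from 7.74 ± 5.05 to 43.7 ± 5.54 CPM (log2 fold change 2.57 ± 0.51, adjusted p = 3.78e-05, limma-voom). Snap91, a clathrin adaptor of vesicle recycling that was kept in this list, had 1 read at D0 and 33 at D6, a pooled ratio of 42.5 (95% exact counting interval 7.12 to 1730). The nerve-terminal syntaxin Stx1a, a partner of Snap25, had 7 reads at D6 and was not tested.

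Of the other synaptotagmins 3 of 12 could be tested. Syt9 fell from 11.6 ± 5.59 to 0.902 ± 1.56 CPM (adjusted p = 0.00437, limma-voom), with 16 reads at D0 and 1 at D6 (pooled ratio 0.0806, 95% exact counting interval 0.00192 to 0.519), while Syt7 and Syt14 were not called. The list of other vesicle membrane proteins and transporters had 0 of 5 tested genes called (1 at an unadjusted p under 0.05, 0 with limma-trend), with a median of -0.01 (0.02 with median-of-ratios scaling, and 0.24 with library totals, which called 1). In that list Slc32a1, the transporter that loads GABA and glycine, had 2 reads at D0 and 19 at D6, while Slc17a6 and Slc17a7, which load glutamate, had 1 and 0 at D6. Stx1a, Syt7, Syt14, Cltc and these 3 transporters lay outside the naming rule and were picked after their values were seen.

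Of the synapsins and synucleins 2 of 3 tested rose and 1 fell. Sncg had no read at D0 or D2 and 49 at D6, at least 21.1-fold above 3 reads over the D0 group (adjusted p = 2.48e-10, limma-voom). Syn1, the synapsin that tethers vesicles in the reserve pool, went from 6.15 ± 1.34 to 32.5 ± 6.42 CPM (log2 fold change 2.16 ± 0.50, adjusted p = 0.000366). Sncb fell, from 31.7 ± 8.01 to 12.9 ± 6.75 CPM (adjusted p = 0.0122). Syn1 reached 30 reads only with its D6 reads. In the Rab3 cycle and active zone, 3 of 11 tested rose, where 19.4% of all genes did, and 0 fell. Rims2, an active zone protein that binds RAB3, rose by 1.96 ± 0.65 on the log2 scale (adjusted p = 0.0131, limma-voom) and Madd, an exchange factor for RAB3, by 1.87 ± 0.59 (adjusted p = 0.00952), and both reached 30 reads only with their D6 reads.

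In vesicle endocytosis 7 of 17 tested genes rose (19.4% of all genes) and 1, Cltc, fell (18.2% of all), with a median of 0.32. Cltb, a clathrin light chain, went from 2.55 ± 2.81 to 36.1 ± 5.70 CPM (log2 fold change 3.62 ± 0.65, adjusted p = 6.57e-06, limma-voom), and Synj1 and Dnm1, which act in uncoating and fission, rose by 2.51 ± 0.66 (adjusted p = 0.00161) and 2.25 ± 0.63 (adjusted p = 0.00314). Of the 7 that rose, 3 reached 30 reads only with their D6 reads, Synj1 and Dnm1 among them. In the vesicle proton pump, whose gradient drives transmitter uptake, 6 of 12 rose and 2 fell (7 and 0 with library totals), with a median of 0.40. Atp6v0e2 rose by 2.25 ± 0.48 (adjusted p = 0.000113), Atp6v1h by 1.5 ± 0.27 (adjusted p = 5.77e-06) and Atp6v0a1 by 0.87 ± 0.28 (adjusted p = 0.0111). Of the paralogs found in most cell types, 1 of 15 tested rose and 3 fell, with a median of -0.10 (3 rose and 2 fell with library totals, with a median of 0.13). Vamp3, the synaptobrevin of non-neuronal secretion, fell from 66.2 ± 6.85 to 33.6 ± 3.99 CPM (adjusted p = 0.00793) while Vamp2 rose, and Stx3 fell from 23.5 ± 1.99 to 5.34 ± 2.42 CPM (adjusted p = 0.00346). Stx3 reached 30 reads only with its D0 reads. Stx2 rose by 1.67 ± 0.55 (adjusted p = 0.012).

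**Figure D3:**
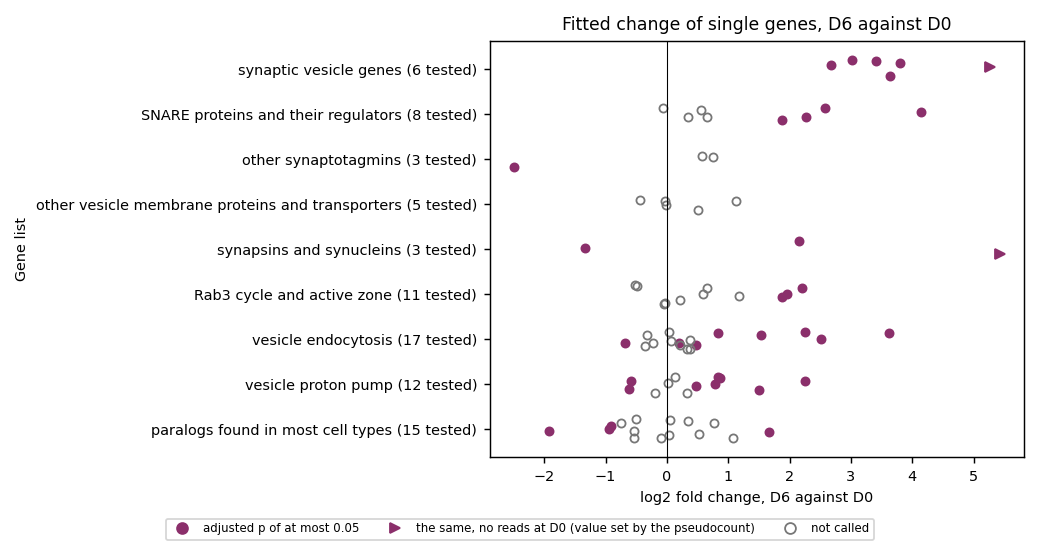
Fitted log2 fold change from D0 to D6 (horizontal axis) of each tested gene, by gene list (vertical axis). Filled symbols passed an adjusted p of 0.05, and the triangles have no read at D0, so that their place on the axis is set by the pseudocount. The 6 tested vesicle genes lie right of 2, while the lists of pump subunits and paralogs fall on both sides of 0 (with library totals, paralogs too, but no called pump subunit below it).

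Among the 2796 other genes that averaged 20 or more reads a library, the 5 whose log2 levels over the 12 libraries were most like the mean of the 8 were Map2 (Pearson r = 0.982), Sbk1 (0.98), 6820431F20Rik (0.962), Nrep (0.96) and Serinc1 (0.959). The 12 points are libraries of 4 days, so the r values mostly reflect the differences between days. Map2, a protein of neuronal dendrites, went from 8.17 ± 3.03 CPM at D0 and 14.1 ± 3.03 CPM at D2 to 76.7 ± 24.9 CPM at D4 and 250 ± 17.9 CPM at D6 (SD, n = 3).

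Tail lengths could be compared for few of the genes. Over the day's pooled reads, the median poly(A) tail at D6 was 109.1 nt for Snap25 (44 reads), 122.9 nt for Vamp2 (101 reads), 114.4 nt for Syt1 (57 reads) and 107.4 nt for Syt4 (21 reads). It was 124.1 nt for Syt11 (143 reads), 115.7 nt for Syp (56 reads), 143.6 nt for Sv2a (12 reads) and 104.4 nt for Rab3a (74 reads). The quartiles of the medians over the 6803 genes with at least 20 reads at D6 were 103.8 and 132.2 nt, and each of the 7 vesicle genes with that many reads fell inside that range. At D4, Snap25 at 139.2 nt, Vamp2 at 132.9 nt, Syt1 at 130.7 nt and Syt11 at 123.9 nt were above the upper quartile of 121.3 nt over 6433 genes, while Syp at 94.5 nt was below the lower quartile of 97.9 nt. Rab3a, at 113.8 nt, lay between the quartiles.

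At least 10 reads in every library of D4 and D6 were found for Syt11 alone. Its median tail was 105.3, 127.5 and 133.3 nt in the 3 D4 libraries and 119.1, 125.2 and 126.1 nt in those of D6, and the days overlapped. The difference was 1.46 ± 8.63 nt (SE, adjusted p = 0.991, limma; exact two-sided permutation p = 1.0, where 3 against 3 libraries cannot go below 0.1). Of 3254 genes tested for tails, 0 (0.0%) were called and 259 had an unadjusted p under 0.05. No vesicle gene had 10 reads in every library of D0 and D6. With at least 5 reads a library, the difference of D6 minus D4 was -29.28 ± 17.66 nt in Snap25 (adjusted p = 0.759, limma), -17.88 ± 15.94 nt in Vamp2 (adjusted p = 0.853) and -15.09 ± 7.39 nt in Syt1 (adjusted p = 0.675), none of which passed. In all 9 libraries of D0, D4 and D6 the median tail of the 8 genes' reads was longer than that of all other reads, by 0.2 to 33.6 nt, and at D2, with 7 to 10 reads a library, it was longer in 2 and shorter, by 21.9 nt, in 1. The other reads were pooled, so genes with many reads weigh most in their median. Over genes with at least 20 reads, the D6 median was 116.7 nt, with Vamp2 and Syt11 above it. Snap25, Syt1, Syt4, Syp and Rab3a lay below it. At D4 the median over genes was 108.9 nt, and of the vesicle genes with that many reads only Syp lay below it.

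**Figure D4:**
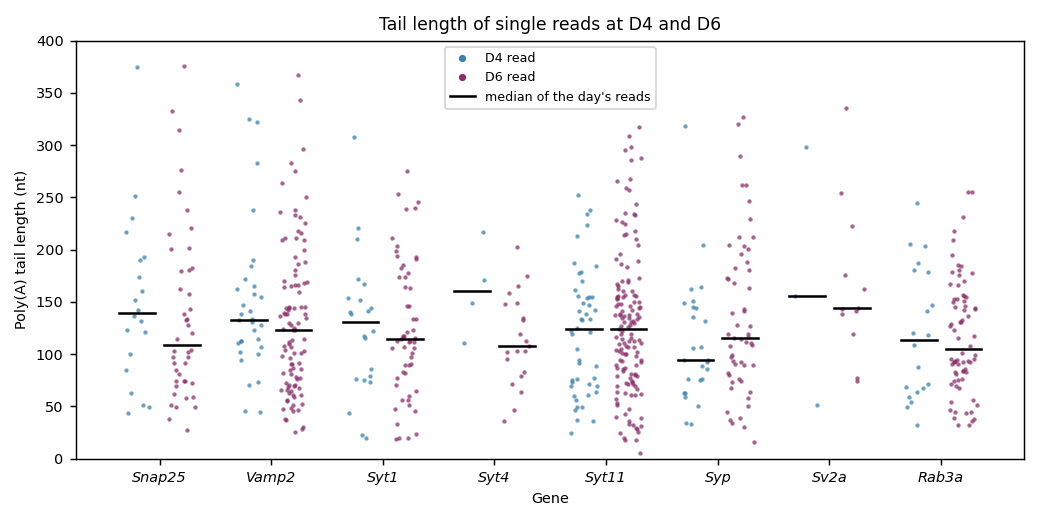
Poly(A) tail length in nt of each read (vertical axis) at D4 and D6, by gene. Points are single reads pooled over 3 libraries and black lines the day's median. The medians at D4 and D6 are 139.2 and 109.1 nt in Snap25 and 123.9 and 124.1 nt in Syt11, and Syt4 has 4 reads at D4.

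Most reads began inside the transcript, as native RNA is read from its 3′ end. The median aligned length was 1614 bases for Snap25, 697 for Vamp2, 1242 for Syt1, 1665 for Syt4, 1184 for Syt11, 1209 for Syp, 849 for Sv2a and 1272 for Rab3a. Reads that began within 100 bases of the annotated start made up 51.9% of those of Rab3a and 40.3% of those of Snap25, but 1.31% of those of Syt11 and 0 of 89 in Syp, which allows a share of up to 3.37%, and 0 of 22 in Sv2a, which allows up to 13.6%. Isoforms could not be told apart by 228 of 229 Syt11 reads, 82 of 94 Syt1 reads and 47 of 106 Rab3a reads, which had a mapping quality of 0, the value the aligner gives where several transcripts match a read equally well. Levels are therefore given per gene. Reads of the 8 genes were longer than the library's median in 11 of 12 libraries.

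The 3′ ends were mostly those annotated. Reads ending within 20 bases of the annotated end made up 95.7% for Syt1, 95.6% for Syt11, 94.7% for Vamp2 and 91.0% for Syp. In Snap25 they were 37 of 62, and the other 25 ended a median of 77 bases earlier (range 21 to 128), inside the 3′ UTR. The earlier end was used by 4, 4 and 3 of 7, 7 and 5 reads in the D4 libraries, and by 5, 6 and 3 of 11, 21 and 11 reads in the D6 libraries. Of the early D4 reads, 1 ended 21 bases early, next to the reads that end within 20 bases, while all others ended at least 74 bases early. With a limit of 50 bases in place of 20, chosen after these values were seen, the counts were 3, 4 and 3 at D4 and 5, 6 and 3 at D6, and the difference between the days was not tested. In Rab3a, 87 of 106 reads ended 24 to 149 bases before the end of the transcript they were assigned to. For Syt4, 8 of 25 reads ended more than 150 bases early.

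**Figure D5:**
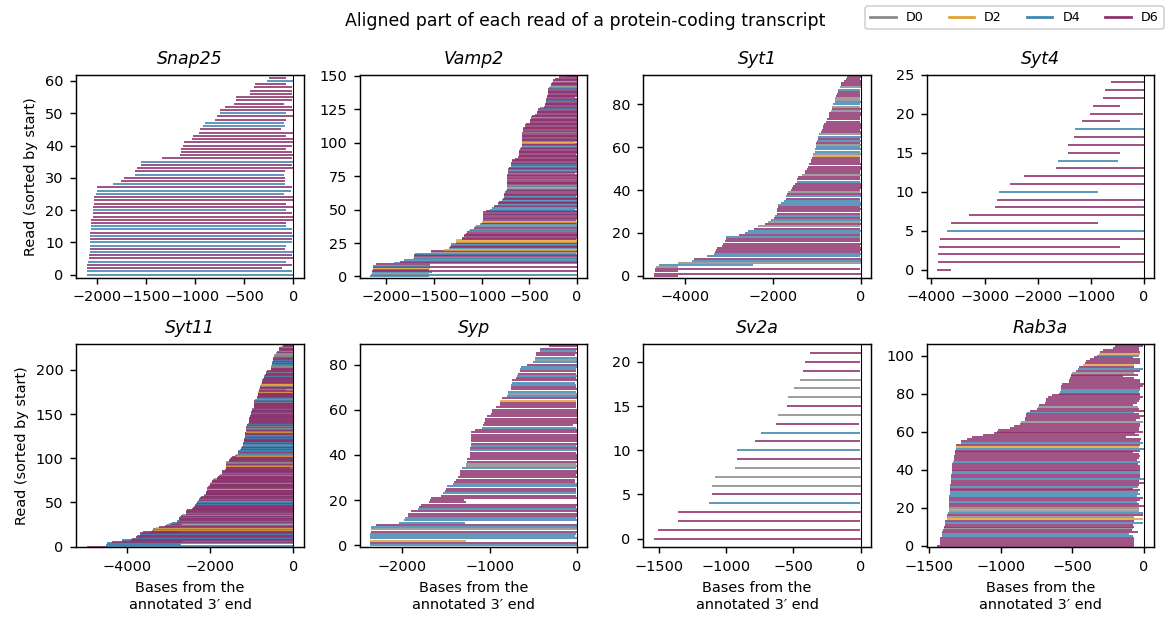
Aligned part of each read of a protein-coding transcript, as bases from the annotated 3′ end (horizontal axis), 1 line per read and sorted by start (vertical axis), coloured by day. Snap25 shows 2 groups of 3′ ends, and in Syp and Sv2a no read comes within 100 bases of the transcript start.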

How the data were processed

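Native RNA of P19 cells at 4 days (3 biological replicates each) was read by direct RNA sequencing. The authors called bases with Guppy, aligned with Minimap2 2.20 to mm10 (GENCODE vM17), called tails with Nanopolish and barcodes with Deeplexicon. Their deposited table has 1 line per read. In it, the authors' mapping quality is a score, their barcode confidence a fraction, and tail length is in nt, not normalized. A second deposited table holds the authors' DESeq2 fold changes and p-values against D0 and was not used. Here, reads of class mRNA tagged PASS, without mitochondrial transcripts and pseudogenes, were tallied per gene. Limma-voom on these tallies was used in place of a DESeq2 or edgeR fit, which was not made. Libraries were scaled by trimmed means (30% of ratios, 5% of levels) and tested with limma 3.58.1 (voom, pseudocount 0.5 reads) in R 4.3.3, all 12 libraries in 1 fit. Tails were tested with limma on medians with at least 10 reads in every library. Counting intervals are exact, at 95%, and cover counting error only. Libraries of a day differed by more than counting noise (chi-square per degree of freedom 1.07 to 1.49). The scripts were tested on simulated data. The 8 genes, the lists and the named-gene rule (per list the 3 largest changes from D0 to D6 among called genes without overlap, and the 5 genes most like the mean of the 8) were chosen with earlier results of these data known. Positions and exons come from GENCODE vM21 on GRCm38, and the transcript positions in the deposited table matched them exactly. Promoters of Snap25, Vamp2 and Syt4 and proteins were not used here. Groups follow the sample labels, although the names of the D0 runs carry the mark D2 and those of 2 D6 runs give no day. Some genes that the rule would name are not reported here.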

Additional observations from a re-analysis of the deposited data

How the results depend on the processing

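From D0 to D6 every alternative called each vesicle gene it could test except Sv2a (adjusted p 0.303 to 0.336, limma-voom, in the 3 settings that tested it). Library totals in place of scaled sizes turned no called direction of these genes. A minimum mapping quality of 10 left 3 genes to test. It called 3 from D0 to D6 and 3 from D0 to D4, where 1026 and 769 of all 6720 genes were called higher. Thinning called 0 of 4 from D0 to D4, where 307 of 6108 genes were called higher. From D2 to D4 the count was 3 with no minimum on reads, with a barcode confidence of at least 0.75, with limma-trend and with the replicate block (Snap25 and Syt1 each time, with Syt11 under limma-trend and Syp under the others), and 0 when thinned. Over all genes, 246 of 14042, 215 of 9108, 320 of 9309 and 226 of 9309 were called higher under these settings in turn, and 80 of 6108 when thinned. From D4 to D6 the count was 1 of 3 with mapping quality of at least 10, 3 with limma-trend and with the replicate block, 2 when thinned and 2 with transcripts in place of genes. In that order, 185 of 6720, 130 of 9309, 286 of 9309 and 72 of 6108 genes and 209 of 12356 transcripts were called higher. Leaving out 1 library gave 4 to 6 genes from D0 to D4, 6 from D0 to D6, 0 to 2 from D2 to D4 and 3 to 6 from D4 to D6. Of the 8983 to 9253 genes tested in these fits, 918 to 1179, 1383 to 1810, 98 to 228 and 182 to 419 were called higher in these comparisons. From D2 to D4 the count was 0 without D2 replicate 2 and without D2 replicate 3, and 2 without D4 replicate 2. From D4 to D6 it was 3 without D4 replicate 1, without D4 replicate 2 and without D6 replicate 2. For D0 to D2 all counts were 0, where 282 of 6108 genes were called when thinned and 1615 of 14042 with no minimum on reads. No vesicle gene was called for tails under any setting, but few could be: at most 1 was tested from D0 to D6, and 0 in most settings, and at most 4 from D4 to D6. Same-numbered libraries carry the same barcode, no label ties a number to a shared culture, and their deviations correlated by -0.138 to 0.172, so the numbers were not taken to pair libraries.

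Directions turned in uncalled results and in 1 called one. Vamp2 from D0 to D4 was -0.20 when thinned (adjusted p = 0.922, limma-voom), and Vamp2 from D0 to D2 was -0.88. The thinning was a random draw that was not repeated. Syt11 from D0 to D2 was -0.06 with all transcript classes and -1.02 when thinned, and ranged from -0.20 to 0.12 without 1 library. Syt1 from D0 to D2 ranged from -1.76 to 0.19 and Syp from -0.07 to 1.16 without 1 library, and the Syt11 tail difference from -6.90 to 7.11 nt. The cause was not tested. Leaving out the 2 D6 runs without a day in their names was chosen after seeing the data. It kept 6 calls from D0 to D6, where 1272 of 8889 genes were called higher. Depth limits D2 most: 3 reads are 0.00249% of its smallest library.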
